A study of Mus musculus with 9 samples.

Results

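The genes described here are 10 genes of smooth muscle cells and pericytes: Rgs5, Mcam, Pdgfrb, Acta2, Tagln, Cnn1, Smtn, Lmod1, Myl9 and Myh11. They were found as all probe sets of the deposited table that the platform annotation assigns to one of these symbols, which gave 17 of 45101 probe sets. All 10 genes were measured, 4 of them by several probe sets, and 16 of the 17 probe sets lay above the low-value cut, a mean log2 value of 6.22 under which the lowest 40% of probe sets fall. The exception was a Myh11 probe set. The samples were 3 lines of mouse embryonic fibroblasts (MEFs), which are primary cultures grown from minced embryos. Each line came from a female embryo (E12.5) and was measured on 3 expression arrays, 9 in all. The KO line (embryo E7) was homozygous for a deletion of Oga, the Het line (embryo E4) was heterozygous and the WT line (embryo E8) was wild type. Oga encodes O-GlcNAcase, the enzyme that takes O-GlcNAc, a single sugar, off nuclear and cytoplasmic proteins.

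Males with a floxed Oga allele, on a background written as C57B1/6, had been mated to MMTV-Cre females, whose Cre recombinase is driven by a mammary tumour virus promoter, and the heterozygous offspring were bred with each other. Whether the lines carried the Cre transgene is not given in the labels, and all were grown in DMEM. Per the design text the 3 arrays of a line are technical replicates, so every genotype stands for 1 line from 1 embryo. The tests below therefore measure differences against the spread between arrays, and genotype cannot be told apart from whatever else set the embryos apart. The KO line matched its label: the most abundant Oga probe set read 6.03 to 6.08 on KO arrays, against 11.16 on all Het arrays and 11.89 to 11.95 on WT arrays. No array stood apart, with r = 0.997 to 0.999 between arrays of the same line and 0.989 to 0.996 between lines.

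Smooth muscle cells contract when calcium-activated myosin light chain kinase phosphorylates the regulatory light chain of smooth muscle myosin, which then pulls on actin filaments. Most genes of this apparatus are switched on by serum response factor (SRF) together with its partners of the myocardin family, which act at a DNA element called the CArG box. Pericytes are the mural cells of capillaries: they depend on the PDGF receptor beta and carry Rgs5 and Mcam as markers. Fibroblasts in culture also make smooth muscle actin, transgelin and calponin when they take on a myofibroblast state, so these genes do not by themselves identify a cell type.

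Promoter sequences are shown for Acta2, Myl9 and Lmod1, whose windows held a CArG box or a near match, and for Rgs5, the member with the largest difference between the lines. They are from RefSeq on GRCm38.p6 and run from 250 bases before to 50 bases after the gene start used in that table, 300 bases each, read 5′ to 3′ on the strand of the gene. Capitals mark a CArG box or a stretch that differs from it by 1 letter.
Rgs5 promoter, chr1:169655251-169655550, plus strand: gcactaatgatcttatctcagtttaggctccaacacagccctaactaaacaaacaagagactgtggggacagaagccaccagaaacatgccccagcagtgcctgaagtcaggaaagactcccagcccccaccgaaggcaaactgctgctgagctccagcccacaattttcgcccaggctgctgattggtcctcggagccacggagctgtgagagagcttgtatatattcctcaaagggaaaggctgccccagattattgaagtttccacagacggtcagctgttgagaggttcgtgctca
Acta2 promoter, chr19:34255324-34255623, minus strand: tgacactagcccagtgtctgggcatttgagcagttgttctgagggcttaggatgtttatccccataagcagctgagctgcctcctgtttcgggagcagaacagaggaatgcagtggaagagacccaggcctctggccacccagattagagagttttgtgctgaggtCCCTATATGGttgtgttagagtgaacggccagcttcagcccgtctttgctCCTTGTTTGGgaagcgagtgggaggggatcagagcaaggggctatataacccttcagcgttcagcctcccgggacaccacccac
Myl9 promoter, chr2:156775214-156775513, plus strand: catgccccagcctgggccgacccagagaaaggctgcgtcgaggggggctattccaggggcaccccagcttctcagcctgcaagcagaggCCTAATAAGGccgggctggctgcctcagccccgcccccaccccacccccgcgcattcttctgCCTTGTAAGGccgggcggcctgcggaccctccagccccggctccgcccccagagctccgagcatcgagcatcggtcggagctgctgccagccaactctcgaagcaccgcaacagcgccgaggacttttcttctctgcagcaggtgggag
Lmod1 promoter, chr1:135324563-135324862, plus strand: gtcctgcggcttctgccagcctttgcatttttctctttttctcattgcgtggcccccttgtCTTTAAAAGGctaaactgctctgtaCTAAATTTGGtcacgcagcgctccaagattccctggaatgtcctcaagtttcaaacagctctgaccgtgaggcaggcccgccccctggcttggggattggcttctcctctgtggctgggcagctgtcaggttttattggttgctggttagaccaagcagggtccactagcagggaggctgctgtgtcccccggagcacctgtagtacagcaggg
The table held a promoter for 7 of the 10 genes, and the others were Tagln, Myh11 and Pdgfrb. The exact CArG box was found in 1 of the 7 windows, that of Myl9 (CCTAATAAGG), and in 1.63% of all 32851 windows of this length. A stretch with 1 letter different was found in 3 of the 7, against 19.9% of all windows. These were CCCTATATGG and CCTTGTTTGG in Acta2, CCTTGTAAGG in Myl9, and CTTTAAAAGG and CTAAATTTGG in Lmod1. Rgs5, Mcam, Cnn1 and Smtn had no such letters in this window. The letters CATTCC, the MCAT element of TEAD factors, were found on either strand in 3 of the 7 windows (Acta2, Smtn and Lmod1) and in 14.7% of all windows. Searched in the same way, TATAAA was in 0 of the 7 and 13.6% of all windows, CAGAC in 4 and 49.6%, and CANNTG in 7 and 72.3%. The CArG box reads the same on both strands. None of these matches overlapped a CArG box, and a match of letters is a description of the window only.

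The genes as a group were higher in the KO line than in the WT line, with the exception of Pdgfrb. Calls needed a limma adjusted p under 0.05 together with a change of at least 2-fold, and the words rose and fell are kept for called genes. In the comparison of KO with WT, 3 of the 10 genes rose, namely Rgs5, Cnn1 and Mcam, and none fell. Of all 12962 genes tested 0.988% rose and 2.58% fell in this comparison, 3.56% together. The other 7 genes were within 2-fold: 6 were higher in the KO line and Pdgfrb was lower. All 10 passed the adjusted p threshold alone, 9 of them higher, where 21.6% of all genes passed as higher and 31.5% as lower, 53.1% together. The median log2 difference of the 10 genes was 0.79, beside -0.03 over all genes.

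**Figure D1:**
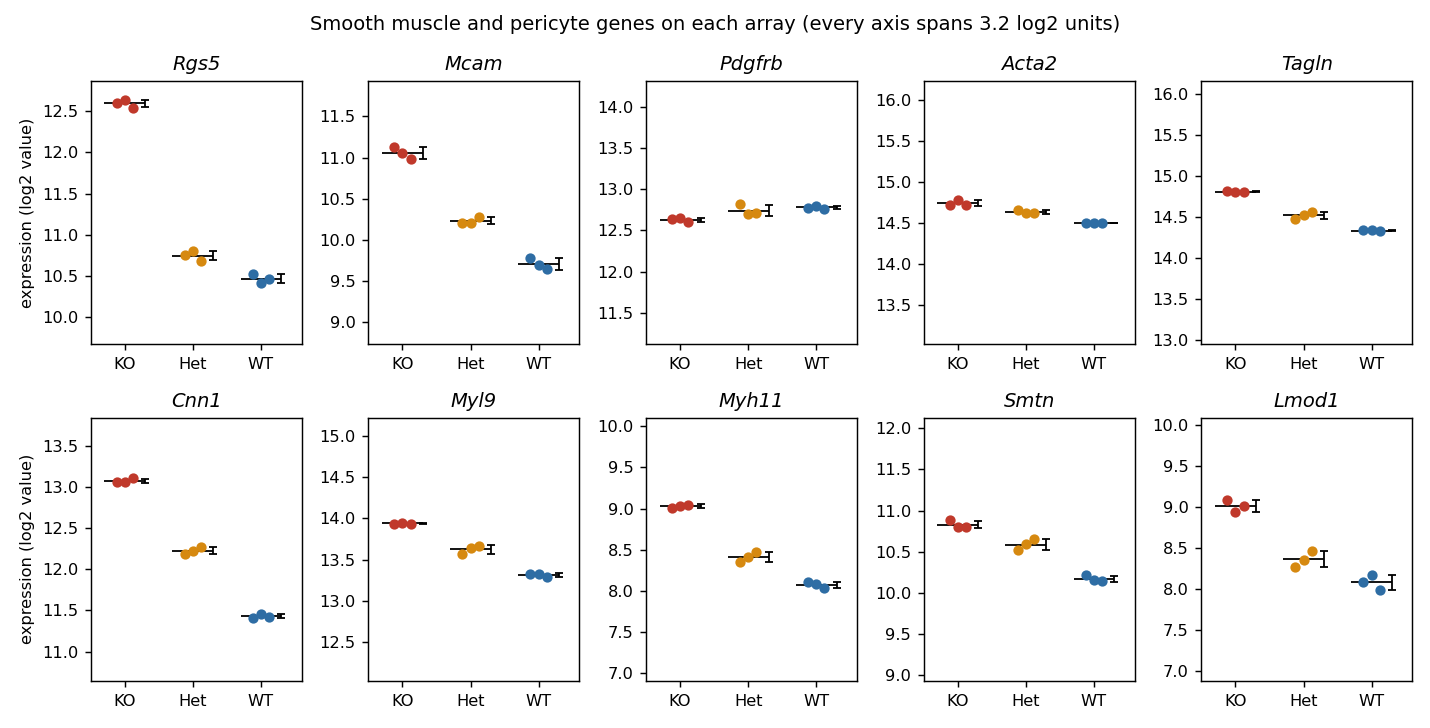
Expression (log2 value) of the 10 genes on each array, with the KO, Het and WT lines from left to right; points are arrays, horizontal bars the mean and error bars the SD of 3 arrays, and every axis spans the same number of log2 units. In all panels but that of Pdgfrb the KO arrays lie above the Het arrays and the Het arrays above the WT arrays.

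Rgs5, which encodes a GTPase-activating protein that shortens signalling from G protein-coupled receptors and is a marker of pericytes, differed most. At its most abundant probe set (1417466_at) it read 12.61, 12.63 and 12.55 on KO arrays, 10.75, 10.80 and 10.68 on Het arrays, and 10.52, 10.41 and 10.46 on WT arrays, as log2 values. The KO arrays stood far above all others, while Het and WT arrays lay close together without overlapping. The gene rose 4.39-fold in the KO line against WT (log2 difference 2.13 ± 0.046, SE, limma adjusted p = 6.1e-11) and 3.60-fold against the Het line (1.85 ± 0.046, adjusted p = 4.6e-10). It was the fifth largest of the rises in the KO line against WT. The Het line was 1.22-fold above WT (0.28, adjusted p = 9.2e-04).

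The other 3 Rgs5 probe sets rose as well, in a fit of all 45037 probe sets that are not controls. Probe set 1420941_at read 10.20, 9.95 and 9.96 on KO arrays, 8.74, 8.77 and 8.73 on Het arrays, and 8.58, 8.50 and 8.46 on WT arrays (KO minus WT 1.52 ± 0.070, adjusted p = 9.1e-08). Probe set 1420940_x_at read 10.53, 10.43 and 10.46 on KO arrays, 8.25, 8.40 and 8.45 on Het arrays, and 8.28, 8.25 and 8.18 on WT arrays (2.24 ± 0.062, adjusted p = 3.7e-09). There the Het and WT arrays overlapped. Probe set 1420942_s_at read 9.73, 9.57 and 9.57 on KO arrays, 7.21, 7.22 and 7.26 on Het arrays, and 7.33, 7.37 and 7.37 on WT arrays (2.26 ± 0.054, adjusted p = 1.6e-09). In that probe set the Het arrays lay below the WT arrays, by a log2 difference of -0.13 that missed the threshold (adjusted p = 0.123). So all Rgs5 probe sets placed the Het line near WT, but they did not share a direction for Het against WT. The marks _x_at and _s_at denote probes that can match more than one transcript.

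Mcam, an adhesion molecule of the immunoglobulin family found on pericytes, smooth muscle and endothelium, read 11.12, 11.06 and 10.98 on KO arrays, 10.21, 10.21 and 10.28 on Het arrays, and 9.78, 9.69 and 9.64 on WT arrays. The lines did not overlap. Mcam rose 2.55-fold in the KO line against WT (1.35 ± 0.050, adjusted p = 2.7e-09). In the Het line it was 1.44-fold above WT (0.53, adjusted p = 2.9e-05), which is short of 2-fold. Endothelial cells are another source of Mcam, and their markers are given further down.

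Pdgfrb encodes the receptor through which PDGF-B recruits pericytes and drives the growth of mesenchymal cells. It read 12.63, 12.65 and 12.60 on KO arrays, 12.82, 12.70 and 12.71 on Het arrays, and 12.77, 12.80 and 12.77 on WT arrays. Het and WT arrays overlapped, and the KO arrays lay just under both. The KO line was 1.11-fold lower than WT (-0.15 ± 0.042, adjusted p = 0.0105), and the 95% interval of the difference over arrays ran from -0.24 to -0.06. Its other probe set (1417148_at) read 11.06, 10.96 and 11.01 on KO arrays, 11.23, 11.26 and 11.34 on Het arrays, and 11.54, 11.44 and 11.44 on WT arrays. There the lines were separate, with KO 1.38-fold below WT (-0.46 ± 0.054, adjusted p = 9.0e-05). Pdgfrb was therefore the member whose difference ran against the others at both of its probe sets, without reaching 2-fold at either. The lower KO than Het value at the first probe set (-0.11, adjusted p = 0.0410) did not hold under 12 of the 18 alternatives other than the fold minimum, with an adjusted p of 0.29 after median centring of the arrays.

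Cnn1, the basic calponin of smooth muscle that binds actin and restrains myosin ATPase activity, had the largest difference of the thin-filament genes. It read 13.06, 13.06 and 13.11 on KO arrays, 12.19, 12.22 and 12.28 on Het arrays, and 11.41, 11.45 and 11.42 on WT arrays. The 3 lines formed separate and almost evenly spaced levels. Cnn1 rose 3.13-fold in the KO line against WT (1.65 ± 0.039, adjusted p = 1.1e-10). In the Het line it was 1.74-fold above WT (0.80 ± 0.039, adjusted p = 2.6e-07), the largest Het difference of the 10 genes.

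Tagln encodes transgelin (SM22), an actin cross-linker and one of the earliest smooth muscle markers. It read 14.81, 14.81 and 14.80 on KO arrays, 14.48, 14.52 and 14.56 on Het arrays, and 14.34, 14.34 and 14.33 on WT arrays. The lines did not overlap, and KO was 1.39-fold above WT (0.47 ± 0.036, adjusted p = 9.5e-07). These are among the highest values of the table, whose maximum was 15.1.

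Acta2, which encodes smooth muscle alpha-actin, gave different sizes at its 3 probe sets. The most abundant (1416454_s_at) read 14.72, 14.78 and 14.72 on KO arrays, 14.66, 14.62 and 14.62 on Het arrays, and 14.50, 14.50 and 14.50 on WT arrays. The lines were separate, but KO was only 1.18-fold above WT (0.24 ± 0.036, adjusted p = 1.8e-04), the smallest of the higher members. Probe set 1444105_at read 9.86, 9.90 and 9.79 on KO arrays, 8.82 on all 3 Het arrays, and 8.38, 8.27 and 8.40 on WT arrays. It rose 2.82-fold in the KO line (1.496 ± 0.052, adjusted p = 1.35e-08 among all probe sets). Its exactly equal Het values were shared by 409 of 45037 probe sets, or 0.908%, so they are not particular to it. Probe set 1456658_at read 8.35, 8.27 and 8.16 on KO arrays, 7.53, 7.55 and 7.78 on Het arrays, and 7.10, 7.12 and 7.14 on WT arrays, a rise of 2.21-fold (1.14 ± 0.074, adjusted p = 1.1e-06).

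All 3 Acta2 probe sets thus had KO above Het above WT, with KO minus WT between 0.24 and 1.496. Averaged over its probe sets, the difference of the gene was 0.96 in place of 0.24. The value of 0.24 is from 1416454_s_at, whose mark denotes probes that can match more than 1 transcript. The other Acta2 probe sets do not carry that mark, and both rose. Among the 82 genes with a mean log2 value of 14 or more, which include Acta2 and Tagln, KO minus WT ran from -0.38 to 0.84. Among the 1004 genes from 12 to 14 it ran from -2.02 to 1.65. The part that the level of a probe set, or the match of its probes to several transcripts, has in its difference was not tested.

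**Figure D2:**
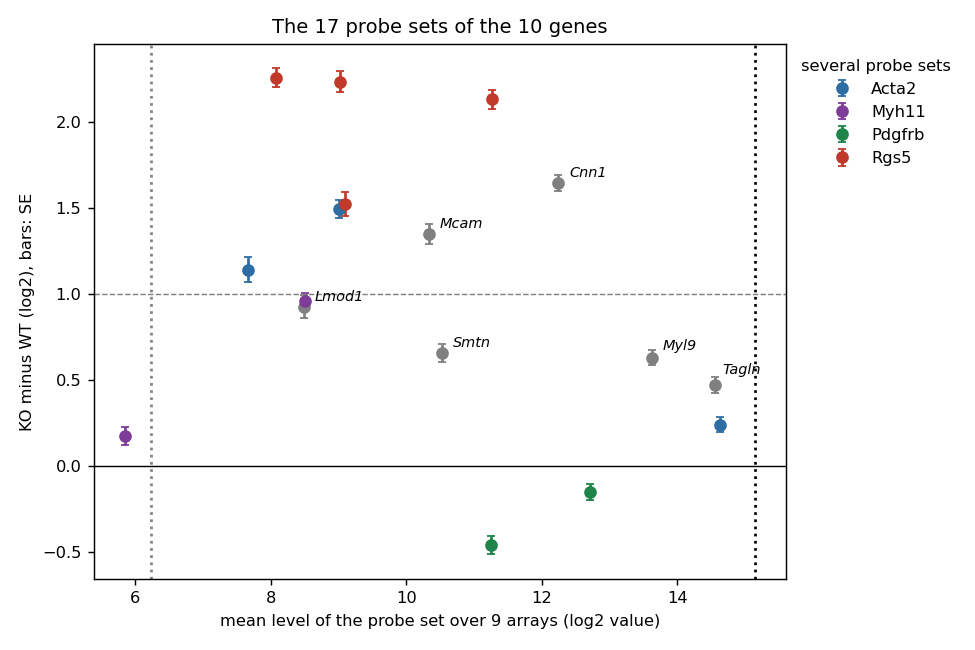
KO minus WT difference (log2, vertical axis, bars are SE) of each of the 17 probe sets against its mean level over 9 arrays (log2 value, horizontal axis). Genes with several probe sets are coloured, the dashed line marks 2-fold, and the dotted lines mark the low-value cut and the highest value of the table; the Acta2 probe set at the top of the range shows 0.24 while the other 2 show 1.14 and 1.496.

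Smtn and Lmod1 encode smoothelin, an actin-binding protein of contractile smooth muscle, and leiomodin 1, which nucleates actin filaments in smooth muscle. Smtn read 10.88, 10.80 and 10.80 on KO arrays, 10.52, 10.59 and 10.65 on Het arrays, and 10.21, 10.15 and 10.14 on WT arrays, with KO 1.58-fold above WT (0.66 ± 0.045, adjusted p = 3.6e-07). Lmod1 read 9.08, 8.94 and 9.005 on KO arrays, 8.27, 8.36 and 8.46 on Het arrays, and 8.09, 8.17 and 7.99 on WT arrays, with KO 1.90-fold above WT (0.93 ± 0.063, adjusted p = 3.3e-07). Neither gene had overlapping lines and neither reached 2-fold. The 95% interval of Lmod1 over arrays, from 0.79 to 1.07, includes 2-fold, whereas that of Smtn, from 0.56 to 0.76, does not.

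The myosin genes lay in the same direction. Myl9, the regulatory light chain whose phosphorylation starts contraction, read 13.93, 13.95 and 13.94 on KO arrays, 13.56, 13.64 and 13.67 on Het arrays, and 13.32, 13.32 and 13.28 on WT arrays, with KO 1.55-fold above WT (0.63 ± 0.039, adjusted p = 1.5e-07). Myh11, the smooth muscle myosin heavy chain and the marker most restricted to that lineage, read 9.01, 9.03 and 9.05 on KO arrays, 8.35, 8.41 and 8.47 on Het arrays, and 8.10, 8.08 and 8.03 on WT arrays. It was 1.94-fold above WT in the KO line (0.96 ± 0.041, adjusted p = 7.5e-09), just under the 2-fold limit, with a 95% interval from 0.87 to 1.05. The other Myh11 probe set, under the low-value cut, read between 5.70 and 5.96 on all 9 arrays. There KO was above WT by 0.17 (limma adjusted p = 0.0307 among all probe sets). The KO and Het arrays overlapped, and both lay above all WT arrays.

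Over all 17 probe sets, 8 rose in the KO line against WT (the 4 of Rgs5, 2 of Acta2, and those of Mcam and Cnn1), beside 0.646% of all 45037 probe sets. In the Het line against WT none of the 17 rose, beside 0.0955%, while 12 were higher and 1 lower at the adjusted p threshold alone, beside 10.1% higher. Between KO and Het 5 rose, namely the 4 of Rgs5 and 1 of Acta2, beside 0.415%, and 13 were higher and 1 lower at the threshold alone, beside 26.6% in either direction. For KO against WT 15 were higher and 2, both of Pdgfrb, were lower at the threshold alone, where 14.2% of all probe sets passed as higher and 28.9% in either direction.

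In the Het line none of the 10 genes reached 2-fold against WT, where 0.054% of all genes rose and 0.201% fell. At the adjusted p threshold alone 9 of 10 were higher in the Het line in the limma fit, as they were at an unadjusted p below 0.05. After median centring 8 were, as Acta2 missed the threshold (adjusted p = 0.079), and averaged over its probe sets Pdgfrb was lower (-0.12, adjusted p = 0.0301). This compares with 13.4% of all genes higher and 21.0% lower, 34.4% together. The median of the 10 genes was 0.30, beside -0.01 over all genes. After Cnn1 (0.80), the Het differences were 0.53 for Mcam, 0.42 for Smtn, 0.34 for Myh11, 0.32 for Myl9, 0.28 for both Rgs5 and Lmod1, 0.18 for Tagln and 0.14 for Acta2. Pdgfrb differed by -0.04 (adjusted p = 0.526), with a 95% interval from -0.13 to 0.06. The comparisons of KO and of Het with WT share the WT arrays, so their values are given side by side and are not independent. In 9 of 10 genes all KO arrays lay above all Het arrays and all Het arrays above all WT arrays, an order found without overlap in 5.41% of all genes. Taken pair by pair, all KO arrays were above all WT arrays in 25.7% of genes, all Het above all WT in 19.8% and all KO above all Het in 26.6%, and in 9 of the 10 genes each time. These counts use the most abundant probe set of each gene. The full order of KO above Het above WT held in 12 of the 17 probe sets. It did not hold for 1420940_x_at and 1420942_s_at of Rgs5, 1418122_at of Myh11 and both of Pdgfrb.

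**Figure D3:**
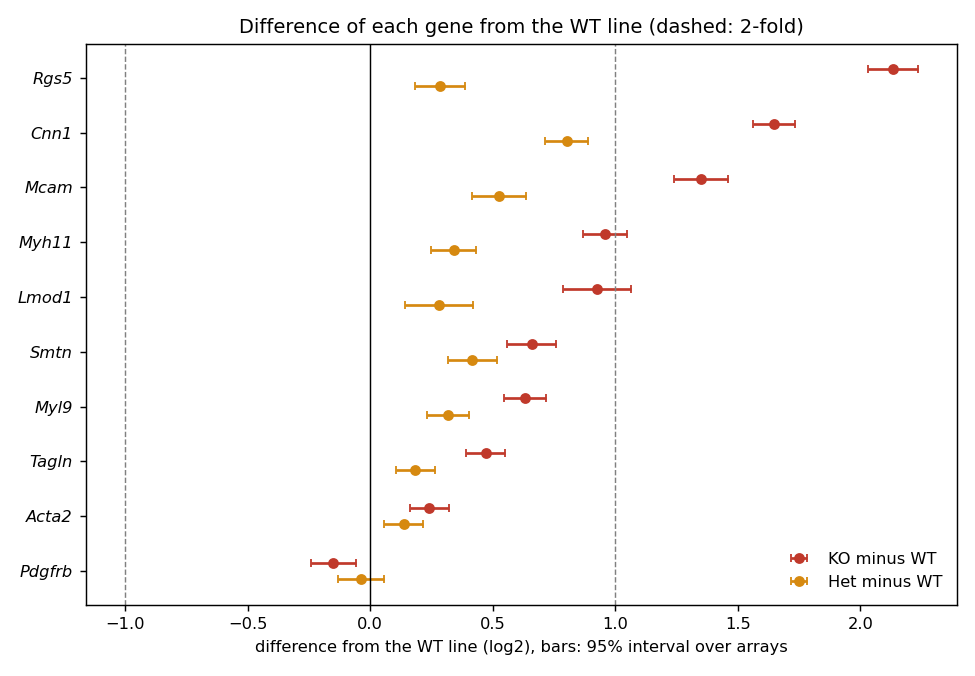
Difference of each gene from the WT line (log2, horizontal axis) for the KO line (red, upper point) and the Het line (orange, lower point), with 95% intervals over arrays; dashed lines mark 2-fold. Rgs5, Cnn1 and Mcam exceed 2-fold in the KO line, no gene does in the Het line, and Pdgfrb alone lies on the negative side.

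Between the KO and Het lines, Rgs5 (1.85) was the only one of the 10 genes called, beside 0.625% of all genes that rose and 1.37% that fell. Cnn1 (0.85) and Mcam (0.82) followed, then Lmod1 (0.65), Myh11 (0.62), Myl9 (0.32), Tagln (0.29), Smtn (0.24), Acta2 (0.10) and Pdgfrb (-0.11). All 10 passed the adjusted p threshold alone, 9 of them higher, where 23.7% of all genes were higher and 28.6% lower, 52.3% together. The smallest of the positive differences, that of Acta2, had an adjusted p of 0.0317, and in 7 of the 18 alternatives other than the fold minimum it did not pass. That value is from the probe set at the top of the range: averaged over the Acta2 probe sets the difference was 0.59 (adjusted p = 5.5e-07), and probe set 1444105_at rose by 1.03.

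The position of the Het line between the others was not the same for all genes. The Het minus WT difference was 13.3% of the KO minus WT difference for Rgs5, 30.4% for Lmod1, 35.5% for Myh11, 39.0% for Mcam and for Tagln, 48.6% for Cnn1, 50.1% for Myl9, 57.1% for Acta2 and 63.1% for Smtn, on the log2 scale. For Pdgfrb, where both differences were negative, it was 24.6%. The other Acta2 probe sets gave 31.3% and 44.2%, on the other side of the midpoint, and 1444105_at passed the threshold as below it (-0.28, adjusted p = 0.0016). The test of Het against the midpoint of KO and WT passed the adjusted p threshold for 4 of 10 genes, all below the midpoint, where 20.4% of all genes passed as below and 19.9% as above, 40.4% together. Rgs5 lay 0.78 below the midpoint (-0.78 ± 0.040, adjusted p = 4.2e-07), Lmod1 differed by -0.18 (adjusted p = 0.0211), Mcam by -0.15 (adjusted p = 0.0193) and Myh11 by -0.14 (adjusted p = 0.00979). Cnn1 was within -0.10 to 0.05 of the midpoint and Myl9 within -0.07 to 0.08 (95% intervals over arrays). Without Het replicate 2 only 2 genes passed, as Lmod1 and Mcam did not, and without Het replicate 1 the same pair missed the threshold while Smtn passed as above (0.12). Quantile normalization likewise ended the call of Mcam (-0.09) and gave one for Smtn (0.14), and with trended and robust variance Tagln passed as below (-0.05). The 4 Rgs5 probe sets all lay below the midpoint, by differences from -1.26 to -0.53.

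Paralogs of the 10 genes went in both directions, and how they differ from the 10 genes was not tested. The cytoplasmic actin genes Actb and Actg1 were at 0.06 and 0.12 between KO and WT, beside 0.24 for Acta2. All these values are from the most abundant probe set of each gene, and averaged over its probe sets Acta2 was at 0.96. The calponin genes Cnn2 and Cnn3 were at 0.22 and 0.04, beside 1.65 for Cnn1. Transgelin 2, Tagln2, was at 0.42, beside 0.47 for Tagln. The non-muscle myosin heavy chain genes Myh9 and Myh10 were at 0.41 and 0.25, beside 0.96 for Myh11. The light chain gene Myl12a was at 0.40, beside 0.63 for Myl9. Largest among the paralogs not called were Actg2 (0.93), Bcam (0.82) and Rgs10 (-0.76). These paralogs were named after their values were seen. Of 25 measured paralogs 3 rose and 2 fell (median 0.18), beside 0.988% and 2.58% of all genes. The striated muscle actin genes Actc1 (1.69) and Acta1 (1.61) and the regulator gene Rgs4 (1.12) rose, while Pdgfra (-2.55) and Rgs2 (-1.03) fell. Averaged over its probe sets, Rgs4 was under 2-fold (0.95), and 1 paralog in place of 2 fell after quantile normalization.

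Pdgfra, the receptor typical of fibroblasts, read 9.03, 8.99 and 8.72 on KO arrays, 10.88, 10.87 and 10.79 on Het arrays, and 11.47, 11.39 and 11.51 on WT arrays. It fell by 2.55 on the log2 scale in the KO line (SE 0.073, adjusted p = 3.9e-10), where Pdgfrb differed by -0.15. Averaged over its probe sets, Pdgfra fell by 1.82 and Pdgfrb differed by -0.31. Of the 6 genes in the list of PDGF ligands and other receptors, Pdgfd rose (1.23), Pdgfra fell and 4 were not called. Of all genes 0.988% rose and 2.58% fell.

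Other contractile genes of smooth muscle were mostly higher in the KO line. Of 22 such genes 5 rose, none fell and 17 were not called in the KO line against WT (median 0.66). Of all genes 0.988% rose and 2.58% fell. At the adjusted p threshold alone 20 of the 22 were higher, beside 21.6% of all genes. Kcnmb1, the beta subunit of the calcium-activated potassium channel of smooth muscle, rose by 1.66 and the intermediate filament gene Synm by 1.35. Ppp1r14a (CPI-17), an inhibitor of myosin phosphatase, rose by 1.33 and the actin-binding gene Synpo2 by 1.24, or 0.76 averaged over its probe sets. The fifth was the desmin gene Des (1.15). Kcnmb1 had Het and WT means of 6.17 and 5.93, both under the low-value cut. It passed the filter only through its KO mean of 7.59, and its rise is measured from WT values under the cut. In the Het line 13 of the 22 genes were higher at the adjusted p threshold, beside 13.4% of all genes, and none reached 2-fold.

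Beside 0.988% of all genes, 1 of 13 measured regulators of smooth muscle transcription rose. This was Myocd, myocardin, the SRF partner restricted to smooth and cardiac muscle. It read 7.74, 7.51 and 7.59 on KO arrays, 6.63 on all Het arrays, and 5.78, 5.90 and 6.20 on WT arrays. The difference of KO from WT was 1.65 ± 0.093 (adjusted p = 7.0e-08), with a WT mean under the low-value cut. With adjusted p alone 10 of the 13 were higher in the KO line and 1 lower, beside 21.6% and 31.5% of all genes. Higher within 2-fold were, among others, Fhl2 (0.79), Tbx18 (0.68), Foxf1 (0.57), Srf (0.49) and the myocardin-related factor gene Mrtfa (0.33). The lower one was Nfatc4 (-0.19). The 2 that did not pass were Mrtfb (-0.05, adjusted p = 0.233) and Klf4 (-0.02, adjusted p = 0.755), a repressor of smooth muscle genes. The regulators named here other than Myocd were chosen after their values were seen. The list median was 0.30.

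Other pericyte genes were called in both directions. Of 11 measured, 2 rose and 3 fell in the KO line (median -0.09), beside 0.988% and 2.58% of all genes. At the adjusted p threshold alone 5 were higher and 5 lower, beside 21.6% and 31.5% of all genes. The forkhead factor gene Foxs1 (1.16) and Rgs4 (1.12) rose, and Rgs4 is also counted among the paralogs above. Averaged over the probe sets of each gene, 1 in place of 2 rose, as Rgs4 was at 0.95. Ndufa4l2 (-2.64), the angiopoietin gene Angpt1 (-1.55) and the aminopeptidase gene Anpep (-1.36) fell. The genes not called lay on both sides: Heyl was at 0.62, the proteoglycan gene Cspg4 (NG2) at 0.34 and Notch3 at 0.32. Ebf1 was at -0.34, Kcnj8 at -0.23 and Abcc9 at -0.09. These were named after their values were seen. Higd1b, Vtn and Art3 lay under the low-value cut on all arrays.

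**Figure D4:**
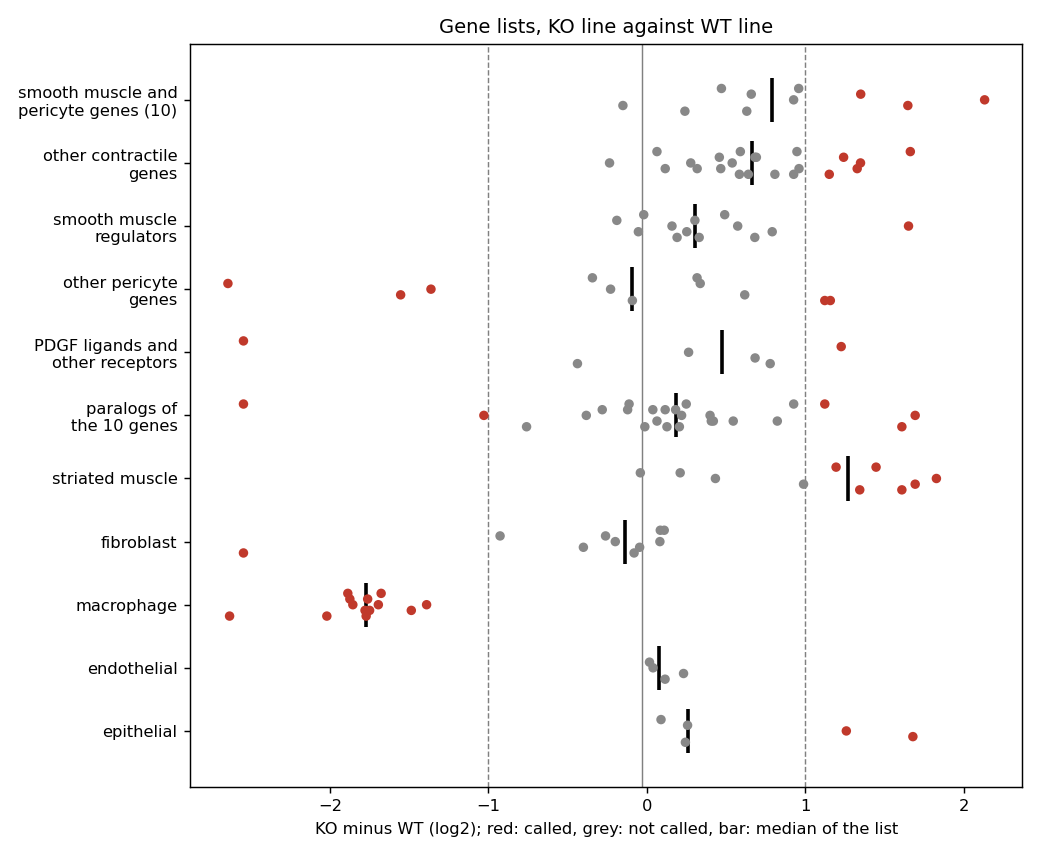
KO minus WT difference (log2, horizontal axis) of the measured genes of each list, one row per list, with called genes in red, genes not called in grey and the list median as a black bar; the grey line is the median of all genes and dashed lines mark 2-fold. The striated muscle markers lie furthest to the right by their median (1.27). The 10 smooth muscle and pericyte genes (0.79) and the other contractile genes (0.66) also lie mostly to the right, the macrophage markers all to the left.

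Markers of several other cell types also differed between the lines, in both directions. In bulk cultures fewer cells of a type and less RNA per cell cannot be told apart. The 10 genes had a summed level, as log2 of the sum of their linear values, of 16.57 to 16.59 on KO arrays, 16.25 to 16.27 on Het arrays and 16.04 to 16.05 on WT arrays. The most abundant genes weigh most in such a sum. The mean log2 level of the 10 genes was 12.16 to 12.19 on KO arrays, 11.58 to 11.64 on Het arrays and 11.26 to 11.30 on WT arrays. All 13 macrophage markers fell in the KO line against WT, beside 2.58% of all genes. Their summed level was 13.96 to 14.03 on KO arrays, 15.43 to 15.51 on Het arrays and 15.78 to 15.81 on WT arrays. Of 10 measured markers of striated muscle 6 rose and none fell in the KO line against WT, where 0.988% of all genes rose. Their median log2 difference was 1.27, beside 0.79 for the 10 smooth muscle and pericyte genes. The summed level of these markers was 11.50 to 11.53 on KO arrays, 10.85 to 10.97 on Het arrays and 10.24 to 10.26 on WT arrays. Of these rises, Myh3 (WT 5.52 to 5.84) and Myl1 (WT 5.92 to 6.12) had WT values under the low-value cut. Myh3 and Myl1 passed the filter through KO and Het values above it. Actc1 and Acta1 are also among the paralogs above. Among the defining factors Myog was higher in the KO line by 0.99 (adjusted p = 1.6e-08) and in the Het line by 0.83 (adjusted p = 6.7e-07), both under 2-fold and above the cut on every array. Myod1, left out of the gene test for its low mean, was at 6.05 to 6.30 on KO arrays, 6.13 on Het arrays and 5.82 to 6.08 on WT arrays, and Myf5 and Pax7 were under the cut on every array. Fibroblast markers were at 17.24 to 17.30 on KO arrays, 17.32 to 17.33 on Het arrays and 17.36 to 17.37 on WT arrays, and 1 of 10, Pdgfra, fell. The mean log2 level of the same markers, which weights each alike, was 12.92 to 13.00 on KO arrays, 13.27 to 13.29 on Het arrays and 13.38 to 13.40 on WT arrays. At the adjusted p threshold alone 5 of the 10 were lower in the KO line and 1 was higher, beside 31.5% and 21.6% of all genes. The lower ones were Pdgfra, the decorin gene Dcn (-0.93), Prrx1 (-0.40), Twist1 (-0.26) and Col3a1 (-0.20), and the higher one was Vim (0.11).

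Of 10 endothelial markers 4 were measured above the cut and none was called between KO and WT, beside 3.56% of all genes. Their summed level was 10.62 to 10.65 on KO arrays, 10.53 to 10.63 on Het arrays and 10.46 to 10.50 on WT arrays. The measured markers were Kdr, Eng, Esam and Egfl7, with KO minus WT of 0.02, 0.23, 0.04 and 0.12. With adjusted p alone 1 of the 4, Eng, was higher in the KO line, beside 21.6% of all genes. Kdr had means of 8.07 on KO arrays, 8.04 on Het arrays and 8.06 on WT arrays. Of the other markers, Pecam1, Cdh5, Tek and Tie1 were under the cut on every array. Emcn, the endomucin gene, had too low a mean for the gene test but read 6.63, 6.75 and 6.596 on KO arrays, above the cut, against 5.49, 5.43 and 5.39 on Het arrays and 5.59, 5.68 and 5.75 on WT arrays. In the fit of all probe sets it was higher in the KO line by 0.99 against WT (adjusted p = 7.5e-07), just under 2-fold, and rose by 1.23 against Het (adjusted p = 3.0e-07). Of 5 measured epithelial and mesothelial markers Krt18 (1.68) and Krt19 (1.26) rose in the KO line against WT, beside 0.988% of all genes. The summed level of the 5 was 10.57 to 10.66 on KO arrays, 9.95 to 9.98 on Het arrays and 9.83 to 9.86 on WT arrays. Cdh1, Krt14 and Msln were under the cut on every array. RNA integrity can be read from actin control probes: 3′ minus 5′ gave 0.05 to 0.09 on KO arrays, 0.09 to 0.12 on Het arrays and 0.06 to 0.08 on WT arrays. The GAPDH control gave -0.099 to -0.036 on KO arrays, -0.0077 to 0.0041 on Het arrays and -0.088 to -0.069 on WT arrays, so that the Het arrays lay above the others on both controls. The part of these cell types and of RNA quality in the differences of the 10 genes was not tested.

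The genes whose values over the 9 arrays were most like the median profile of the 10 genes were Des (Pearson r = 0.998), the prefoldin subunit gene Pfdn1 (0.998), Sfn (14-3-3 sigma, 0.998), the slow skeletal troponin I gene Tnni1 (0.998) and Ccdc80 (0.997), as a description with no test, since arrays of a line share 1 RNA source and the values form 3 clusters. Their KO minus WT differences were 1.15, 0.56, 2.17, 1.83 and 0.33 in that order. Among the 10 genes themselves r with that profile, of which each is a part, was 0.942 for Rgs5, -0.873 for Pdgfrb and 0.959 to 0.996 for the others.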

How the data were processed

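RNA of 3 MEF lines was measured on 9 Affymetrix arrays (biotin label), 3 technical replicates per line, per the labels. The authors deposited log2 values of 45101 probe sets; the log base was taken from the values (3.25 to 15.1). GCOS and Partek are named per the submitters' processing notes; the background correction, normalization and summarization are not given in the sources used here. Medians of the arrays were 6.87 to 6.95, so no further scaling was applied.

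The 64 control probe sets and the lowest 40% of probe sets by mean (cut at 6.22) were left out, and each gene was represented by its most abundant probe set, giving 12962 genes. The mean was taken over the arrays of all lines, so a probe set under the cut in some lines could pass through another. Only the 34945 probe sets with 1 symbol were named. Lines were compared with limma 3.58.1 (lmFit, eBayes) in R 4.3.3, all 9 arrays in 1 model, with Benjamini-Hochberg adjustment over all genes; a second fit held all 45037 probe sets. Intervals are 95% limits of that model. Figures used matplotlib 3.10.9 in Python 3.11.15. The steps were tested on simulated data. Arrays give no read depth, and their number limits the precision.

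The 10 genes, the gene lists and the tests were chosen with earlier results of these data known. Named from each other list were the called genes with the largest KO minus WT difference, up to 4, or up to 2 where none was called, and the 5 genes most like the median profile. Other names were chosen after their values were seen, and not all of them are marked so in the text. Alternatives covered scaling, filters, probe set choice, fold minimum, a replicate block, fits of the compared lines alone, the variance model and each array left out. Same-numbered arrays of different lines deviated from their line means with correlations from -0.176 to 0.213, so the numbers were not treated as pairs.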

Additional observations from a re-analysis of the deposited data

How the results depend on the processing

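The counts of called members were 3 (KO against WT), 0 (Het against WT) and 1 (KO against Het) under the 18 alternatives other than the fold minimum, and those of called probe sets were 8 and 0 under the 14 such alternatives that apply. With a 1.5-fold minimum the member counts were 7, 1 and 5, with 1 probe set in Het against WT, and with no fold minimum they were 9, 9 and 9, with 15 and 12 probe sets. The count of members apart from the midpoint ran from 2 to 4 when single arrays were left out. Directions turned only for differences from the midpoint that were not called: Acta2 was at -0.028 with median centring and at -0.11 (called) with the mean of its probe sets, Cnn1 at 0.012 with quantile normalization, Myl9 at -0.044 and Pdgfrb at -0.0063 with median centring, and over left-out arrays Myl9 ran from -0.021 to 0.030 and Pdgfrb from -8e-04 to 0.060. The cause was not tested. With the replicate block the counts of called members were also 3, 0 and 1, and the adjusted p of KO against Het was 0.0509 for Acta2 and 0.0524 for Pdgfrb; same-numbered arrays were nearest to each other in 4 of 18 cases, and the numbers do not mark pairs. The other contractile genes that rose numbered 2 in place of 5, and Myocd was not among the genes tested, with the lowest 60% of probe sets left out, since fewer genes are tested. Limits lie in 1 line per genotype and in the spread between arrays alone.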
